A study of Mus musculus with 19 samples.

Results

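The expression of 9 genes encoding dimerizing leucine-zipper (bZIP) transcription factors was followed across fractions of mouse hindlimb muscle. These were Fos, Fosb, Fosl1 and Fosl2 of the Fos family, Jun, Junb and Jund of the Jun family, and Atf3 and Maff, which belong to related families. They were chosen by gene symbol, without a threshold on any value but with earlier results of these data known. All 9 were found among the 23846 rows of the deposited expression table. Of these, 8 passed the filter on low values used for testing, and Fosl1 did not.

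Poly(A) RNA was sequenced from 19 libraries of C57BL/6J mice that, per the labels, were given tamoxifen from 8 weeks of age (2.5 mg a day, 5 days) and then left for 10 days. The labels name neither an inducible allele nor its driver. All groups share the tamoxifen treatment, and no untreated group was compared. Whole (4 libraries) is titled a mononuclear suspension of whole muscle in the labels but named whole muscle in their description field. LinPos (4 libraries) is the lineage-positive sorted fraction, said to hold endothelial and blood-derived cells, and LinNeg (4 libraries) is the lineage-negative fraction. LinNegSca1Neg (4 libraries) and LinNegSca1Pos (3 libraries) are the lineage-negative cells without and with the surface protein Sca1, the latter described as mesenchymal progenitors. The labels do not state whether replicates came from separate animals or pools, and p-values therefore cover the spread among these libraries alone, which may be technical.

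AP-1 is a dimer of a Fos-family with a Jun-family protein, or of Jun proteins with each other, that binds a short palindromic DNA element (TRE) and the related cyclic AMP response element (CRE). Fos proteins cannot bind DNA without a partner. Most of these genes are immediate early genes: their mRNA is scarce in resting tissue, rises within minutes of stress, growth factor or mechanical signals through kinases of the MAPK pathways, and is quickly degraded. Fos, Jun, Junb and Atf3 are known to be induced in muscle cells while tissue is dissociated with enzymes for sorting.

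Levels are FPKM, fragments scaled to the length of the transcript and to all fragments mapped in the library, so genes can be compared per length. Markers of myofibres, the contractile cells that sorting removes, made up 14.0 to 16.6% of the summed FPKM in Whole (10 of 10 markers found). The range was 0.564 to 4.50% in LinNegSca1Neg and 0.332 to 2.10% in LinNeg, and lower in LinPos (0.0117 to 0.0343%) and LinNegSca1Pos (0.00969 to 0.0516%), where at most 1 of the 10 was at the lowest listed value in any library. Leukocyte markers (7 of 7 found) made up 0.396 to 1.22% in LinPos and at most 0.0271% in any other group. Mesenchymal progenitor markers (5 of 5 found) made up 2.19 to 3.14% in LinNegSca1Pos, 2.34 to 3.06% in its parent LinNeg and 0.492 to 1.16% in LinNegSca1Neg. Endothelial markers (5 of 5 found) made up 0.0928 to 0.334% in LinPos. Markers of the labelled cell types were thus present in their fractions. Depth was not stated. The step in the lowest values, which grows as fewer fragments are sequenced, was 1 to 5.10 times that of Whole replicate 1. It was above 3 in Whole replicate 3, LinNegSca1Neg replicate 4 and LinNegSca1Pos replicate 3. The libraries of LinPos, LinNeg and LinNegSca1Neg also stood apart by replicate number, with replicates 1 and 2 against 3 and 4, and the labels do not say what the numbers mark.

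The upstream sequences of 8 genes were read from RefSeq (GRCm38.p6, the mm10 assembly), in 10 windows of 300 bases that run from 250 before to 50 after each annotated start. They are shown because promoters of immediate early genes are known to hold elements through which stress signals, and AP-1 proteins themselves, act. A full CRE (TGACGTCA, searched on both strands) was found in 1 of the 10 windows, that of a Maff transcript, against 1.80% of 32544 mouse windows of this length. The core TGACG, which lies within the full CRE and was searched after the other motifs, was found in 6 of the 10 windows, of 5 genes, against 20.9%. Neither the TRE (TGANTCA, in 7.79% of all windows) nor the CArG box bound by serum response factor (in 1.64%) was found in any of the 10, which says only that these letters are not in these windows. Below are the 250 bases before the start for the 5 genes with the CRE core, each 5′ to 3′ on the gene's own strand. The windows of Fosl2, Jun and Jund, which were also high in sorted cells, held none of these motifs and are not shown. Of the 3 Maff windows only that with the full CRE is shown. Capitals mark the CRE core on either strand and, in Maff, the full CRE.
Fos, chr12:85473640-85473889, plus strand: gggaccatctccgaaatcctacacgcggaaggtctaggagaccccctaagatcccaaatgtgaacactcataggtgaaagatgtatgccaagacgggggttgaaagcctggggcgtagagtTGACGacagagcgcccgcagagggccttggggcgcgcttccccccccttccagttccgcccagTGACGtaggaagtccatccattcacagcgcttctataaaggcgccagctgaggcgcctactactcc
Fosb, chr7:19310046-19310295, minus strand: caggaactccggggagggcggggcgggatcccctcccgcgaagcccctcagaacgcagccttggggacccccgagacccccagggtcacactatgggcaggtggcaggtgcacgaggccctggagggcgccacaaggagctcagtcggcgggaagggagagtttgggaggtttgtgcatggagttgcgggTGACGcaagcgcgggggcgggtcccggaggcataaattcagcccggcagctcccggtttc
Junb, chr8:84978749-84978998, minus strand: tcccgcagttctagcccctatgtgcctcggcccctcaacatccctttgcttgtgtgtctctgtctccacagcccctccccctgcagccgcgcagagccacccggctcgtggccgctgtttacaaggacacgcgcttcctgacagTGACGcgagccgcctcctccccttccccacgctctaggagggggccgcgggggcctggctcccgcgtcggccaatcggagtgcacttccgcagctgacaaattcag
Atf3, chr1:191183334-191183583, minus strand: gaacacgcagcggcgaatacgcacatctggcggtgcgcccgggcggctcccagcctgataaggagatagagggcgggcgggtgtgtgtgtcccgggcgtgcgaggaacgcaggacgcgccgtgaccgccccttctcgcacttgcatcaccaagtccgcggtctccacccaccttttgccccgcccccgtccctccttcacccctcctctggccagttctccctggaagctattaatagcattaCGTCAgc
Maff, chr15:79347270-79347519, plus strand: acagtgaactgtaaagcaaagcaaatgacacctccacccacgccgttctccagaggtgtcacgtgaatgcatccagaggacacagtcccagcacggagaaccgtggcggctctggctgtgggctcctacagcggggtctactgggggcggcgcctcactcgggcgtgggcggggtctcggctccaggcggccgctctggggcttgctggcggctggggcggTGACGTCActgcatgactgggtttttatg
With bases counted back from -1 just before the start, the core began at -129 and -66 in Fos, -60 in Fosb, -106 in Junb and -7 in Atf3, while the full CRE of Maff began at -29.

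All 8 tested genes were higher in every sorted fraction than in Whole, by 2.33 (Maff in LinPos) to 9.05 (Fos in LinNegSca1Neg) on the log2(FPKM + 1) scale. Fos rose the most of all 14043 tested genes in LinNeg and in LinNegSca1Neg. In each comparison 8 of 8 were called higher at an adjusted p below 0.05 by limma, which tests each gene against the spread between libraries. Among all tested genes, 48.8% were called higher in LinPos, 47.5% in LinNeg, 50% in LinNegSca1Neg and 44% in LinNegSca1Pos, and 22.9%, 21.8%, 18.2% and 21.6% were called lower. In no case did a sorted library overlap with a Whole library, and the same held, with the sorted fraction higher, for 46.7%, 46.2%, 48.7% and 46.8% of all tested genes. Fosb and Junb passed the filter of 1 FPKM in 3 or more of the 19 libraries only through the sorted fractions. Their calls and lack of overlap are thus not independent of that filter. As the genes were chosen with earlier results of these data known, the calls of all 8 are not independent support for that choice. The median difference from Whole of the 8 genes was 4.99 in LinPos, 5.32 in LinNeg, 5.26 in LinNegSca1Neg and 5.08 in LinNegSca1Pos, beside medians over all tested genes of 0.45, 0.43, 0.50 and 0.35. Scaling the libraries by their median ratio shifted the latter medians by -0.41, -0.45, -0.54 and -0.43, and left all 8 genes called higher. The 4 comparisons share the Whole libraries. Whole differs from the sorted fractions in its cells as well as in its handling, as it was not sorted, and these cannot be told apart. Whether it was dissociated is not settled by the labels, which name it both a mononuclear suspension and whole muscle. In such bulk samples, fewer cells of a type and less RNA per cell cannot be told apart either.

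**Figure D1:**
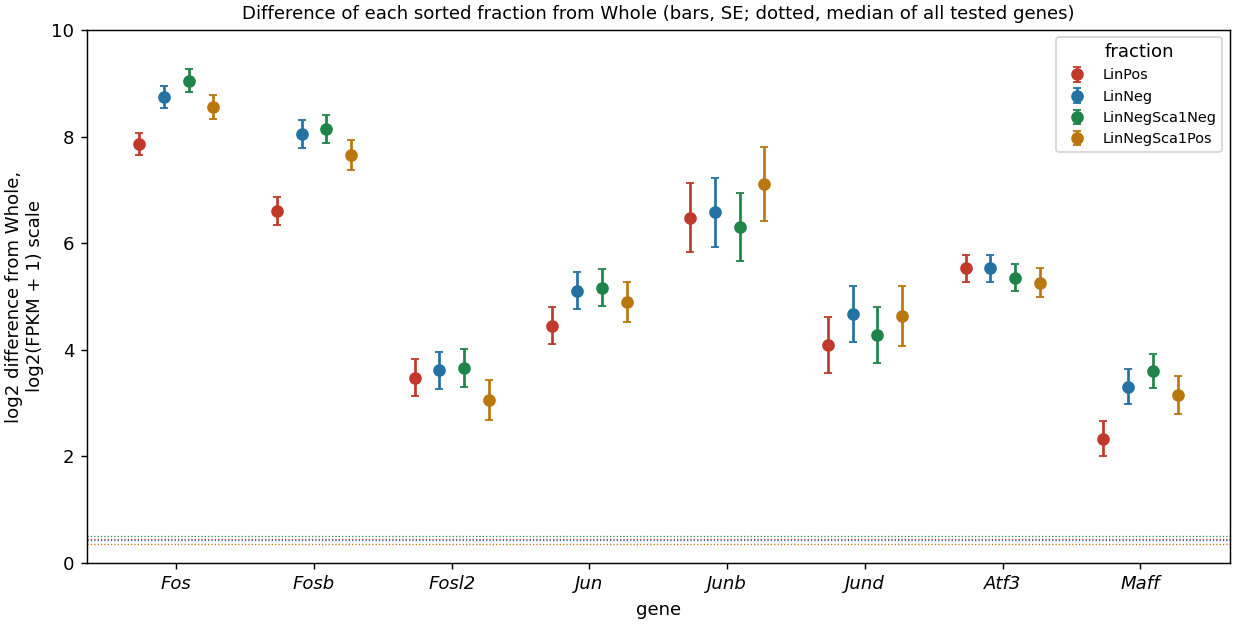
Difference of each sorted fraction from Whole for the 8 tested genes, as the log2 difference on the log2(FPKM + 1) scale (vertical axis) with its standard error. Dotted lines are the medians of all tested genes, at 0.35 to 0.50, and all points lie at 2.33 or above.

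Fos encodes c-Fos, the founding member of its family and the AP-1 subunit with the sharpest induction. Its gene lies at chr12:85473901-85477270 (mm10). In Whole the 4 libraries, in order of replicate number, held 2.60, 3.22, 2.08 and 2.10 FPKM. In LinPos they held 840.1, 812, 935 and 665 FPKM and in LinNeg 1654, 2025, 1176 and 1247 FPKM. Values were 2263, 2219.7, 1538 and 1483 FPKM in LinNegSca1Neg and 1158, 1366 and 1419.99 FPKM in LinNegSca1Pos. Every sorted library was thus far above every Whole library, and every LinPos library was below every lineage-negative library. The mean was 325 times that of Whole in LinPos, 610.0 times in LinNeg, 750.1 times in LinNegSca1Neg and 526 times in LinNegSca1Pos. The log2 difference was 9.05 ± 0.21 (SE) in LinNegSca1Neg (limma adjusted p = 1.02e-15) and 7.86 ± 0.21 in LinPos (4.04e-15). Within a library, Fos ranked 2 to 38 by FPKM among all genes in LinNegSca1Neg, 8 to 56 in LinNeg, 27 to 69 in LinNegSca1Pos and 48 to 99 in LinPos, but 7817 to 9174 in Whole.

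Fosb encodes FosB, whose truncated splice form is long-lived in brain, and lies at chr7:19302696-19310045. Whole libraries held 0.399, 0.197, 0.0558 and 0.110 FPKM. The LinPos libraries held 154, 137, 132 and 60.3 FPKM and the LinNeg libraries 389, 378, 293 and 220.02 FPKM. In LinNegSca1Neg the values were 480.1, 339, 286 and 264 FPKM, and in LinNegSca1Pos 224, 261 and 232 FPKM. Like Fos, it was lowest among the sorted fractions in LinPos, and LinPos did not overlap with any lineage-negative fraction. The log2 difference from Whole was 6.60 ± 0.26 in LinPos (limma adjusted p = 2.28e-13), 8.05 ± 0.26 in LinNeg (4.32e-14), 8.14 ± 0.26 in LinNegSca1Neg (8.39e-14) and 7.66 ± 0.28 in LinNegSca1Pos (1.51e-13). It ranked 14, 4, 3 and 4 among all tested genes in these comparisons. Since Whole was at most at 0.399 FPKM, ratios of FPKM depend on values close to the lowest listed, and the scale used understates the change.

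Fosl2 and Fosl1 encode Fra-2 and Fra-1, Fos-like proteins without the strong activation domain of c-Fos. Fosl2 (chr5:32136472-32157839) held 1.96, 2.15, 2.27 and 3.30 FPKM in Whole. It held 58.8, 45.1, 35.7 and 18.8 FPKM in LinPos and 55.3, 52.4, 28.3 and 32.0 FPKM in LinNeg. In LinNegSca1Neg it held 69.2, 63.2, 22.7 and 29.8 FPKM and in LinNegSca1Pos 30.1, 30.3 and 21.9 FPKM. All sorted libraries were above all Whole libraries, but the sorted fractions overlapped with each other. The log2 difference from Whole was 3.48 ± 0.35 in LinPos (limma adjusted p = 6.41e-08), 3.61 ± 0.35 in LinNeg (5.15e-08), 3.66 ± 0.35 in LinNegSca1Neg (5.15e-08) and 3.06 ± 0.38 in LinNegSca1Pos (1.22e-06). Fosl1 (chr19:5447698-5455938) was at 0.001 FPKM, the lowest listed value, in 4 of 4 Whole libraries. Its values were 0.0306, 0.0314, 0.733 and 0.193 FPKM in LinPos and 0.180, 0.0379, 0.486 and 0.363 FPKM in LinNeg. They were 0.001, 0.0600, 0.230 and 0.001 FPKM in LinNegSca1Neg and 0.174, 0.464 and 0.001 FPKM in LinNegSca1Pos. Fosl1 was thus below 1 FPKM in all 19 libraries and was not tested. Its locus also shares 2759 bases with Ccdc85b on the other strand.

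Jun encodes c-Jun, the main partner of c-Fos and a target of the JNK kinases, and lies at chr4:95049036-95052222. It was the highest of the 9 genes in Whole, with 22.7, 16.6, 14.9 and 12.6 FPKM. The LinPos libraries held 263, 254, 502 and 607 FPKM and the LinNeg libraries 403, 485, 794 and 813 FPKM. The LinNegSca1Neg libraries held 426, 415, 934 and 888 FPKM and the LinNegSca1Pos libraries 434, 634 and 495 FPKM. Sorted and Whole libraries did not overlap, while LinPos replicates 3 and 4 lay above LinNeg replicates 1 and 2. The log2 difference from Whole was 4.45 ± 0.35 in LinPos (limma adjusted p = 1.63e-09), 5.11 ± 0.35 in LinNeg (3.82e-10), 5.16 ± 0.35 in LinNegSca1Neg (4.94e-10) and 4.90 ± 0.37 in LinNegSca1Pos (1.80e-09). The antisense gene Junos shares 689 bases with Jun in GENCODE vM21; the kit was stranded per the labels, but whether fragments were counted by strand was not stated, so reads of the pair cannot be told apart.

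Junb, whose product is a weaker activator than c-Jun and opposes it at some targets, lies at chr8:84976909-84978748. Whole libraries held 2.93, 0.687, 0.359 and 0.412 FPKM, of which the first stood apart. LinPos libraries held 96.5, 62.1, 393 and 329 FPKM and LinNeg libraries 111, 95.7, 325 and 299 FPKM. LinNegSca1Neg libraries held 90.7, 59.7, 302 and 294 FPKM and LinNegSca1Pos libraries 159, 459 and 239.7 FPKM. Each sorted library exceeded all Whole libraries, and the 4 fractions overlapped with each other. Its log2 difference from Whole was 6.48 ± 0.65 in LinPos (limma adjusted p = 5.01e-08), 6.58 ± 0.65 in LinNeg (5.40e-08), 6.30 ± 0.65 in LinNegSca1Neg (1.09e-07) and 7.11 ± 0.70 in LinNegSca1Pos (5.39e-08). It had the largest standard errors of the 8 genes.

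Jund, the Jun-family member known to be expressed in many resting cells, lies at chr8:70697739-70700616. Whole libraries held 7.68, 3.44, 3.27 and 3.32 FPKM. LinPos libraries held 47.6, 47.3, 145 and 169 FPKM and LinNeg libraries 61.7, 93.0, 259 and 197 FPKM. LinNegSca1Neg libraries held 59.4, 57.0, 186 and 151 FPKM and LinNegSca1Pos libraries 76.4, 180.04 and 149.5 FPKM. As with Junb, sorted libraries were all above Whole and the 4 fractions overlapped. The log2 difference from Whole was 4.08 ± 0.53 in LinPos (limma adjusted p = 1.39e-06), 4.68 ± 0.53 in LinNeg (3.14e-07), 4.28 ± 0.53 in LinNegSca1Neg (1.07e-06) and 4.63 ± 0.57 in LinNegSca1Pos (9.69e-07). The antisense gene Gm11175 shares 919 bases with Jund, with the same limit on strand as for Jun.

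Atf3 encodes a stress-induced factor that dimerizes with Jun proteins and represses many promoters as a homodimer, and lies at chr1:191170297-191183333. Whole libraries held 7.64, 7.14, 9.09 and 3.60 FPKM. LinPos libraries held 366, 338, 423 and 281 FPKM and LinNeg libraries 349, 431, 281 and 349 FPKM. LinNegSca1Neg libraries held 391, 365, 248 and 252 FPKM and LinNegSca1Pos libraries 339.6, 198 and 357 FPKM. All were above Whole, and the 4 sorted fractions overlapped with each other. The sorted means were 298 to 352 FPKM, with a highest mean 1.18 times the lowest, the narrowest range among the 9 genes. The log2 difference from Whole was 5.53 ± 0.25 in both LinPos (limma adjusted p = 1.50e-12) and LinNeg (2.90e-12), 5.35 ± 0.25 in LinNegSca1Neg (7.59e-12) and 5.26 ± 0.28 in LinNegSca1Pos (1.18e-11).

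Maff encodes a small Maf protein that lacks an activation domain and pairs with the cap'n'collar factors, and lies at chr15:79347678-79359076. Whole libraries held 1.01, 1.62, 1.47 and 0.964 FPKM. LinPos libraries held 13.59, 13.2, 7.005 and 8.89 FPKM and LinNeg libraries 27.6, 35.7, 14.9 and 13.64 FPKM. LinNegSca1Neg libraries held 42.5, 36.6, 16.4 and 18.3 FPKM and LinNegSca1Pos libraries 20.1, 14.4 and 23.6 FPKM. LinPos libraries lay between Whole and the lineage-negative libraries, with no overlap on either side. Of the 8 genes it had the smallest log2 difference from Whole in 3 of the 4 fractions, Fosl2 being lower in LinNegSca1Pos. The difference was 2.33 ± 0.33 in LinPos (limma adjusted p = 3.66e-06), 3.31 ± 0.33 in LinNeg (5.41e-08), 3.60 ± 0.33 in LinNegSca1Neg (2.19e-08) and 3.15 ± 0.35 in LinNegSca1Pos (2.84e-07).

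**Figure D2:**
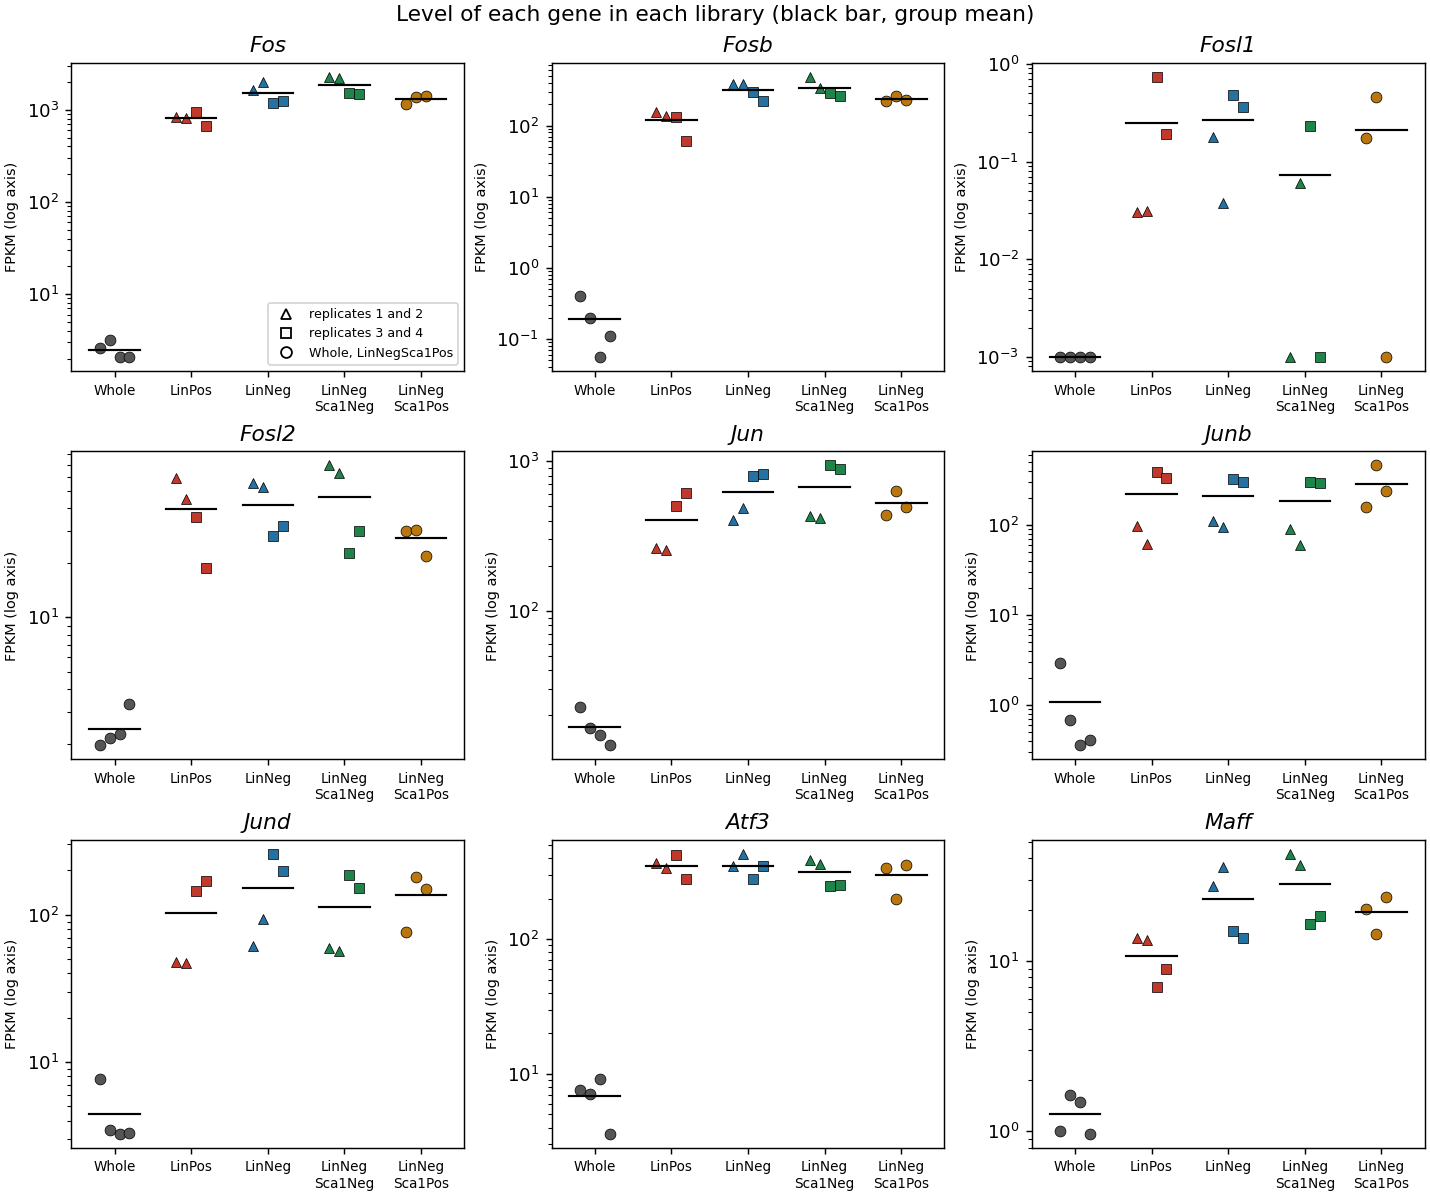
FPKM (log axis) of each of the 9 genes in each of the 19 libraries, by group, with black bars at the group means. Triangles are replicates 1 and 2 and squares replicates 3 and 4 of LinPos, LinNeg and LinNegSca1Neg; for 8 of the genes every sorted library lies above every Whole library, and Fosl1 stays below 1 FPKM.

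Summed over the 9 genes, the FPKM was 0.00709 ± 0.00168% (SD, n = 4) of the library total in Whole. It was 0.470 ± 0.0340% in LinPos (n = 4), 0.809 ± 0.0920% in LinNeg (n = 4), 0.881 ± 0.184% in LinNegSca1Neg (n = 4) and 0.591 ± 0.108% in LinNegSca1Pos (n = 3). Together with the level, the make-up of the families differed. In Whole, Fos held 48.9 ± 8.41% and Fosl2 47.3 ± 10.2% of the Fos-family FPKM. In sorted fractions Fosl2 held 3.97 ± 1.36% (LinPos), 2.20 ± 0.312% (LinNeg), 1.95 ± 0.595% (LinNegSca1Neg) and 1.76 ± 0.414% (LinNegSca1Pos), although its own level was higher there. Fos held 83.9 ± 4.17%, 80.7 ± 2.42%, 83.0 ± 1.78% and 83.1 ± 1.54%, and Fosb 12.1 ± 2.90%, 17.0 ± 2.38%, 15.1 ± 1.71% and 15.2 ± 1.14%, beside 3.71 ± 3.04% in Whole.

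In the Jun family, Jun held the largest share in each group. Its share was 76.4 ± 5.70% in Whole, 59.4 ± 9.68% in LinPos, 65.4 ± 6.73% in LinNeg, 71.1 ± 5.96% in LinNegSca1Neg and 56.9 ± 7.56% in LinNegSca1Pos. Junb held 4.14 ± 3.14% in Whole and 27.1 ± 8.82%, 20.0 ± 4.28%, 17.6 ± 5.07% and 29.0 ± 6.36% in the same order of fractions. Jund held 19.4 ± 2.88% in Whole and 13.5 ± 1.52%, 14.6 ± 3.35%, 11.4 ± 1.23% and 14.2 ± 2.75%. The summed Fos family was 0.248 ± 0.0781 times the summed Jun family in Whole and 1.76 ± 1.05, 2.38 ± 1.46, 3.11 ± 2.07 and 1.77 ± 0.417 times in the sorted fractions, so that the Jun family was the larger in Whole and on average the smaller in sorted cells. The shares of Fos, Fosb, Fosl2 and Junb and the ratio did not overlap between Whole and any sorted fraction. For each of these an exact two-sided permutation test over libraries gave p = 0.0286, the smallest that 4 against 4 or 3 against 4 libraries allow. Adjusted over the 80 shares and ratios compared, this is 0.0788, and none of the 80 passed 0.05.

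**Figure D3:**
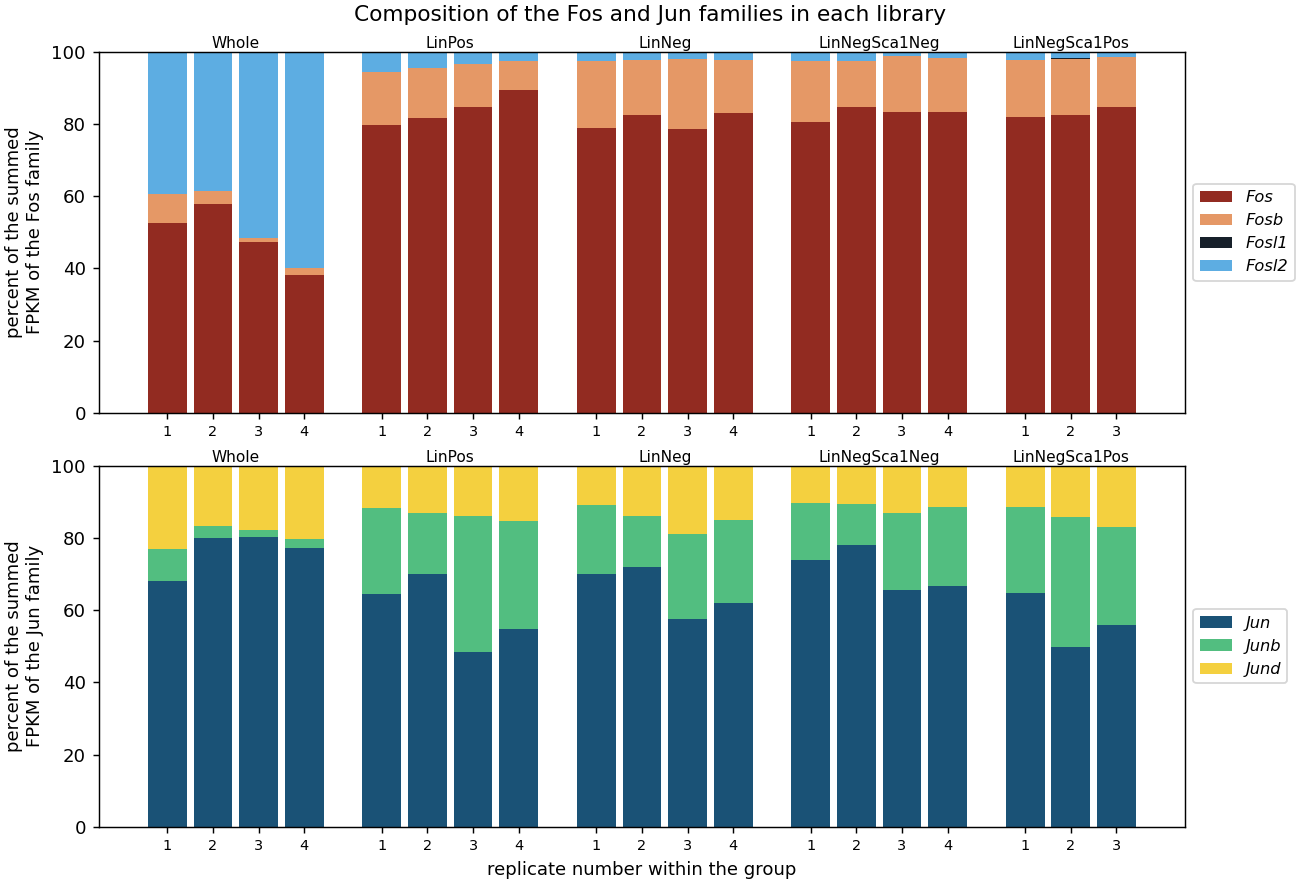
Percent of the summed FPKM of the Fos family (upper) and the Jun family (lower) held by each gene, 1 bar for each library, numbered by replicate within its group. Fosl2 takes a mean of 47.3% of the Fos family in Whole and at most 5.58% in a sorted library, and Junb takes a mean of 4.14% of the Jun family in Whole and at least 11.2% in a sorted library.

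Among the sorted fractions, Fos, Fosb and Maff were lower in LinPos than in LinNeg and LinNegSca1Neg, and no difference was called for Atf3, Fosl2 or Junb. In LinPos, the fraction with leukocytes and endothelium, 3 of 8 genes were lower than in LinNeg, against 25.8% of all tested genes. The log2 difference, LinPos minus LinNeg, was -0.88 ± 0.21 for Fos (limma adjusted p = 0.00195), -1.45 ± 0.26 for Fosb (1.30e-04) and -0.98 ± 0.33 for Maff (0.0176). All 3 were lower in 4 of 4 LinPos libraries than in any LinNeg library. For Maff this was by a narrow margin, with 13.59 FPKM in the highest LinPos and 13.64 FPKM in the lowest LinNeg library. The share of all tested genes without overlap in this comparison was not counted. Without LinPos replicate 3, LinNeg replicate 1 or LinNeg replicate 2 the Maff difference had an adjusted p of 0.0626, 0.0538 or 0.0746. Jun (-0.66 ± 0.35, adjusted p = 0.126) and Jund (-0.60 ± 0.53, 0.376) did not pass the test. Same-numbered libraries of LinPos and LinNeg deviated together, and a replicate block in a fit restricted to both groups gave calls for them, as lower in LinPos (limma adjusted p = 0.00995 and 0.0140). This restricted fit was added after seeing the data, and with the block in the fit of all groups neither was called (0.0775 and 0.253). Rescaling without myofibre markers and mitochondrial genes called Jun lower (0.0305). Atf3 (0.00 ± 0.25), Fosl2 (-0.13 ± 0.35) and Junb (-0.10 ± 0.65) were not called, with adjusted p of 1, 0.789 and 0.917. Neutrophil markers made up 1.04 to 11.6% of the summed FPKM in LinPos and at most 0.223% in any other group; their part in these differences was not tested.

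The same 3 genes were higher in LinNegSca1Neg than in LinPos, against 31.5% of all tested genes: Fos by 1.19 ± 0.21 (limma adjusted p = 1.10e-04), Fosb by 1.54 ± 0.26 (6.15e-05) and Maff by 1.27 ± 0.33 (0.00278). Jun, higher by 0.71 ± 0.35, had an adjusted p of 0.0924, of 0.0135 with the replicate block in a fit of the 2 groups, of 0.0539 with it in the fit of all groups, and of 0.0200 with that rescaling. In LinNegSca1Pos against LinPos, which shares the LinPos libraries, 2 of 8 were higher, against 29% of all tested genes: Fos by 0.70 ± 0.23 (limma adjusted p = 0.0146) and Fosb by 1.06 ± 0.28 (0.00352). Without LinNegSca1Pos replicate 3 the adjusted p of Fos was 0.0520, and with that rescaling of all libraries it was 0.0983. Maff differed by 0.82 ± 0.35 with an adjusted p of 0.0523.

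Within the lineage-negative cells no member was called in the fit of all groups, and some were under other settings. In LinNegSca1Pos against LinNegSca1Neg, limma called 0 of 8, with 1 of 8 at an unadjusted p below 0.05, against 54.5% of all tested genes called in either direction. Fos (-0.49 ± 0.23, adjusted p = 0.0824) and Fosb (-0.48 ± 0.28, 0.164) were below LinNegSca1Neg in 3 of 3 libraries, and Fos was called lower after the same rescaling (0.0263). How many of all tested genes likewise lay below in every library was not counted, so the lack of overlap has no background here. Using replicates 1 and 2 of LinNegSca1Neg alone, 6 of 8 were called, with Junb and Jund higher and Fos, Fosb, Fosl2 and Maff lower; using replicates 3 and 4 alone, 1 was called, Jun, with a log2 difference of -0.82. LinNeg against LinNegSca1Neg and LinNeg against LinNegSca1Pos each gave 0 of 8 calls and 0 at an unadjusted p below 0.05, against 25.9% and 33% of all tested genes. The replicate block in a fit restricted to LinNeg and LinNegSca1Neg gave 1 call, Jund, which was higher in LinNeg by 0.40 (limma adjusted p = 0.0289, and 0.516 with the block in the fit of all groups). LinNeg is the parent of both, so its level need not lie apart from theirs. By group mean, Fos, Fosb, Jun and Maff had the same order, with LinNegSca1Neg above LinNeg, LinNegSca1Pos, LinPos and Whole. Neighbours in that order among the 3 lineage-negative groups were not called different.

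Libraries within a fraction split by replicate number, with Jun, Junb and Jund on the other side from Fosb, Fosl2 and Maff. In replicates 3 and 4 the mean FPKM of Junb was 4.56 (LinPos), 3.02 (LinNeg) and 3.96 (LinNegSca1Neg) times that of replicates 1 and 2. For Jund the ratios were 3.31, 2.95 and 2.90, and for Jun 2.14, 1.81 and 2.17. Fosl2 went the other way, with ratios of 0.525, 0.560 and 0.397, as did Maff with 0.594, 0.452 and 0.438 and Fosb with 0.660, 0.669 and 0.671. In these 6 genes the pairs did not overlap in any of the 3 fractions, and 32.4% of all tested genes likewise split the same way in all 3. For Fos the ratios were 0.968, 0.659 and 0.674 and for Atf3 0.999, 0.807 and 0.661, with overlap in LinPos. Fosl1, at its low level, went with the Jun genes, with ratios of 14.9, 3.89 and 3.79, the last with overlap. As a result the ratio of Fos to Jun family was 2.59 to 4.93 in replicates 1 and 2 of the 3 fractions and 0.673 to 1.33 in replicates 3 and 4, beside 1.304 to 2.11 in LinNegSca1Pos. With 2 against 2 libraries these are given without a test. Myofibre markers were also higher in replicates 3 and 4, at 0.0157 and 0.0343% of the summed FPKM against 0.0117 and 0.0139% in LinPos, 0.695 and 2.10% against 0.332 and 0.364% in LinNeg, and 3.51 and 4.50% against 0.564 and 0.927% in LinNegSca1Neg. Erythroid markers (2 of 3 found) made up 0.591 and 1.44% against 0.0539 and 0.0719% in LinNeg and 0.526 and 1.43% against 0.0721 and 0.0871% in LinNegSca1Neg, without such a split in LinPos. Their part in the split was not tested.

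**Figure D4:**
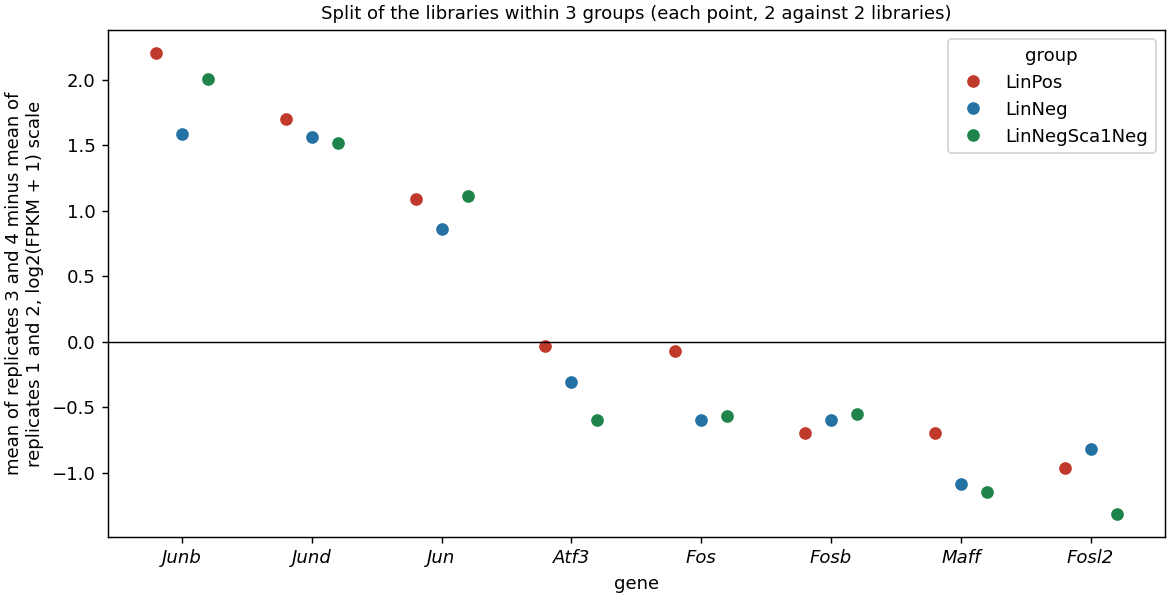
Mean of replicates 3 and 4 minus mean of replicates 1 and 2 on the log2(FPKM + 1) scale (vertical axis) for the 8 tested genes in LinPos, LinNeg and LinNegSca1Neg. Junb, Jund and Jun lie above 0 in all 3 groups, from 0.86 to 2.20, and the other 5 genes lie below 0, from -0.03 to -1.31.

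Averaged over the 3 fractions, this difference was ranked among the 12843 tested genes with a matched GENCODE transcript. It was larger in Junb than in 99.7% of them, in Jund than in 99.3% and in Jun than in 97.2%. Fosl2 and Maff stood above only 3.09% and 3.73%. The longest GENCODE transcripts of Jund and Junb are rich in G and C, at 67.1% and 62.6%, against a median of 50.1% over 12843 tested genes. The other tested genes were at 57.6% (Maff), 56.0% (Fosb), 55.5% (Jun), 53.1% (Fosl2), 52.2% (Atf3) and 51.9% (Fos). Across those 12843 genes GC content and the difference had a Pearson r of -0.08 and a Spearman rho of -0.12, where genes are not independent replicates. These values cover genes of all GC contents together. The median difference was -0.07 in the 535 genes with 60 to 65% GC and 0.0005 in the 44 genes with over 65%. The part of GC content in the split was not tested.

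Over the 15 sorted libraries, the log2 levels of Fos and Fosb went together (Pearson r = 0.92), as did Fos and Maff (0.88), Junb and Jund (0.92) and Jun and Jund (0.89). Fosl2 went against Junb and Jund (-0.80 for both). These libraries share both the fractions and the split by replicate number, so the values describe them only. Among tested genes outside the 9, those most like Fos included Dzip1l and Dzank1 (r of 0.97 for both). For Fosb they were Slc44a1 (0.96), Egr1 (0.94), itself an immediate early transcription factor, and Esr1 (0.94), and for Maff Ddhd2 (0.97), Dusp8 (0.96) and Pus7 (0.96). Those most like Fosl2 were Zfyve16, Fam168a and Gm13363 (0.93, 0.93 and 0.92), and those most like Jun 2310039H08Rik, Cenpv and Dtd1 (0.95, 0.95 and 0.94). Junb was most like 4930526I15Rik, Atp6v0c and Rnaseh2c (0.98, 0.95 and 0.94), and Jund most like Mrpl52, Krtcap2 and Fam53a (0.94, 0.93 and 0.93). Atf3 had the weakest likeness, with Il2ra (0.74) and Rabgef1 (0.72) among the most alike.

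The bZIP proteins that can pair with Fos, Jun, Atf3 or Maff were more often called higher than lower in sorted cells, but outside LinPos their medians and their counts of higher calls lay near those of all tested genes. Of 23 such partners tested, 16 were higher and 2 lower in LinPos than in Whole (48.8% and 22.9% of all tested genes) and 13 higher and 1 lower in LinNeg (47.5% and 21.8%), with median differences of 1.27 and 0.62 beside 0.45 and 0.43 for all tested genes. In LinNegSca1Neg 13 were higher and 1 lower, and in LinNegSca1Pos 12 and 2, with medians of 0.56 and 0.38 beside 0.50 and 0.35. With median-of-ratios scaling 9 were higher in LinNeg and in LinNegSca1Neg, and 5 were higher and 7 lower in LinNegSca1Pos. Other values in parentheses here and for the next lists are log2 differences from Whole on the log2(FPKM + 1) scale. Cebpd, an acute-phase regulator, was at 92.7 ± 58.0 FPKM (SD, n = 4) in LinNeg against 1.75 ± 1.01 in Whole (log2 difference 4.93). Jdp2, which represses AP-1 by pairing with c-Jun, was at 25.8 ± 12.2 against 3.10 ± 0.346 FPKM (2.59). In LinPos the largest rises were of Batf3 (3.23), Batf (2.91), both of which pair with Jun proteins in lymphoid and dendritic cells, and Cebpb (2.80). Nfe2l1, a cap'n'collar partner of small Maf proteins, was lower, at 29.3 ± 6.30 FPKM in LinNeg and 33.3 ± 13.4 in LinPos against 197 ± 15.8 in Whole (-2.73 and -2.62). Limma adjusted p-values for these genes were at most 2.22e-05. Leukocyte and myofibre markers, whose shares are given above, moved with these groups, and their part in these differences was not tested.

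Kinases and activators upstream of AP-1 moved in both directions. Of 21 tested, 7 were higher and 9 lower in LinPos than in Whole, and 6 higher and 10 lower in LinNeg, with medians of -0.02 and -0.32. The shares of all tested genes were 48.8% higher and 22.9% lower in LinPos and 47.5% and 21.8% in LinNeg, and median-of-ratios scaling left 3 of the 21 higher in LinNeg. Map3k8, a kinase that feeds the ERK pathway, was higher in LinPos (3.68) and LinNeg (3.16). Elk3, a ternary complex factor, and Map3k1, a kinase upstream of JNK, were higher in LinPos (3.28 and 2.60). Mapkapk2, a substrate of p38, was at 17.7 ± 8.56 FPKM in LinNeg against 122 ± 12.8 in Whole (-2.84), and Map2k3, which activates p38, was also lower there (-1.92). Limma adjusted p-values for these genes were at most 2.41e-06.

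Regulators of AP-1 mRNA stability and protein activity were represented by 12 genes, of which 11 were tested. In LinPos 7 were higher and 3 lower than in Whole, and in LinNeg 7 were higher and 4 lower, with medians of 1.39 and 0.90 beside the same shares of all tested genes. The 3 largest differences in both were of a single family, RNA-binding proteins that promote decay of AU-rich mRNAs such as that of Fos. Zfp36 was at 1067 ± 338 FPKM in LinPos and 1145 ± 192 in LinNeg against 6.52 ± 1.66 in Whole (7.13 and 7.26), Zfp36l1 differed by 4.02 and 4.41 and Zfp36l2 by 4.39 and 3.53. Limma adjusted p-values were at most 7.55e-12.

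Genes known as AP-1 targets in other settings were mostly higher. Of 26 such genes, 25 were tested, and 17 were higher and 4 lower in both LinPos (48.8% and 22.9% of all tested genes) and LinNeg (47.5% and 21.8%), with medians of 2.04 and 2.13. With median-of-ratios scaling 15 were higher and 7 lower in LinPos. Il6, a cytokine of muscle and its stroma, was at 106 ± 24.6 FPKM in LinNeg and 14.2 ± 5.74 in LinPos against 0.187 ± 0.0613 in Whole (6.47 and 3.61). Il1b was at 486 ± 304 FPKM in LinPos and 7.46 ± 3.75 in LinNeg against 0.163 ± 0.126 in Whole (8.36 and 2.72) and rose the most of all tested genes in LinPos, where neutrophil markers were also high. Il6 and Il1b passed the filter on low values only through the sorted fractions, so their calls are not independent of it. Ptgs2, the inducible cyclooxygenase, differed by 4.96 and 6.01 and the chemokine gene Ccl2 by 6.04 and 5.73. Limma adjusted p-values were at most 7.61e-04.

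The other immediate early genes were mostly called higher, as were the 8 tested genes. Of 19 tested, 19 were higher in LinPos and in LinNeg than in Whole, 18 in LinNegSca1Neg and 17 in LinNegSca1Pos, and none was lower. Among all tested genes 48.8%, 47.5%, 50% and 44% were called higher in these fractions, and 22.9%, 21.8%, 18.2% and 21.6% lower. The list medians were 3.52, 4.07, 3.72 and 3.32, beside 0.45, 0.43, 0.50 and 0.35 for all tested genes. Egr1, the zinc-finger factor that also follows serum response factor, was at 1043 ± 145 FPKM in LinNeg and 271 ± 68.3 in LinPos against 3.17 ± 0.906 in Whole (7.99 and 6.02). In LinNeg it was followed by Socs3 (6.24), an inhibitor of cytokine signalling, and Klf4 (5.47). In LinPos Klf2 (5.72) and Dusp1 (5.19), a phosphatase that turns off MAPK signalling, came next. Limma adjusted p-values were at most 3.43e-08. The lists were not tested as sets.

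**Figure D5:**
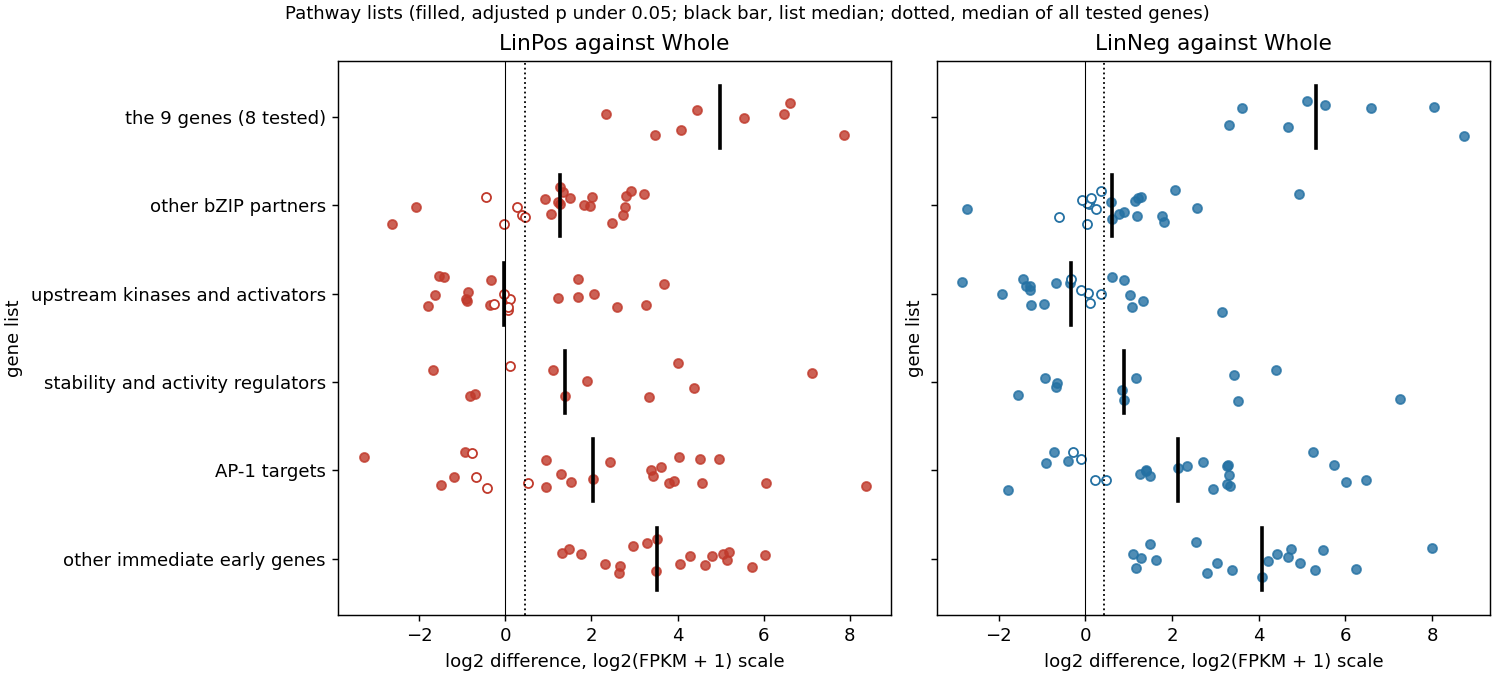
Log2 difference from Whole (horizontal axis, log2(FPKM + 1) scale) of the tested genes of each list in LinPos (left) and LinNeg (right); filled points have an adjusted p below 0.05 and black bars are list medians. The 9 genes (8 tested) have medians of 4.99 and 5.32 and the other immediate early genes 3.52 and 4.07, while the upstream kinases centre near 0, at -0.02 and -0.32.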

How the data were processed

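Poly(A) RNA was sequenced in 19 libraries of 5 groups, assigned from the sample titles. The deposited values are FPKM per gene, which the authors made. The submitters' processing notes name Cufflinks, Bowtie2, TopHat2, bcl2fastq and the mm10 build; their versions, their roles and the gene annotation were not given in the sources used here. FPKM keep no depth, so intervals and floors that need it are not given. Of 23846 rows, 311 hold only status words and 14 hold some, in place of values; both kinds were left out. Another 4 value columns were matched by no sample's labels and left unused. Starts were shifted to count from 1.

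Values were taken as log2(FPKM + 1), which understates the change of low genes. The 14043 rows that reached 1 FPKM in 3 or more of the 19 libraries were fitted with limma (variance trend, two-sided, all 5 groups, 14 residual degrees of freedom), with Benjamini-Hochberg adjustment over all tested rows of a comparison and a threshold of 0.05. Errors of log2 differences are SE and of levels or shares SD. Family shares were compared by exact permutation over libraries. The fit was tested on simulated data. The fit used limma 3.58.1 in R 4.3.3, other steps pandas 2.3.3, numpy 2.4.6 and scipy 1.17.1 in Python 3.11.15, and plots matplotlib 3.10.9.

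The 9 genes and all lists were chosen with earlier results of these data known, so the difference from Whole is not independent support for that choice. All 9 were to be named, with the 3 genes most like each by Pearson r over the 15 sorted libraries, and per list the 3 genes with the largest difference from Whole in LinPos and in LinNeg. A few of the genes so chosen are not reported here. Second values for those genes, the other fractions, and the search for the CRE core were added after values were seen.

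Deviations from the group means of same-numbered libraries correlated across genes at 0.44 to 0.70 for LinPos and LinNeg, 0.36 to 0.67 for LinNegSca1Neg and LinPos and 0.55 to 0.78 for LinNeg and LinNegSca1Neg. The best correlation was with the library of the same number in 4 of 4 cases for LinPos and LinNeg. This held in 3 of 4 for LinNegSca1Neg and LinPos and in 2 of 4 for LinNeg and LinNegSca1Neg. What the numbers mark is not in the labels, and the split of replicates 1 and 2 from 3 and 4 alone could give such values. Pairing by number in these 3 groups is therefore not settled. In all other comparisons at least 1 correlation was below 0.1.

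As alternatives the pseudocount was set to 0.1 or 5, the filter dropped or raised to 5 FPKM, and the libraries scaled by median ratios; others were rescaling without myofibre markers and mitochondrial genes, a fit of the compared groups, the replicate block, each library left out, replicates 1 and 2 or 3 and 4 of LinPos, LinNeg and LinNegSca1Neg alone, and for shares the median and 0.1 FPKM added. A term for replicates 3 and 4, the block in a fit of the compared groups and scaled list counts were added after seeing the data.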

Additional observations from a re-analysis of the deposited data

Results flagged for a closer look

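Of 67 groups of 4 values in which the gap of the highest or lowest library to its neighbour was compared with the group's range, 2 exceeded Dixon's critical value for 4 libraries, which chance exceeds in about 5% of groups. In Whole replicate 1, Junb was at 2.93 FPKM, far above the 0.359 to 0.687 FPKM of the other 3 Whole libraries. In the same library Jund was at 7.68 FPKM, above the 3.27 to 3.44 FPKM of the others. Jun was also highest there, at 22.7 FPKM, without exceeding the critical value. Leaving this library out left all 8 tested genes called higher in each sorted fraction.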

How the results depend on the processing

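Against Whole, all 8 tested genes stayed higher and past the threshold under each alternative named under processing; the lowest log2 difference was 1.2997 and the largest limma adjusted p 3.05e-04. The share of higher calls among all called genes was 68.0%, 68.6%, 73.3% and 67.1% for LinPos, LinNeg, LinNegSca1Neg and LinNegSca1Pos, and 51.7%, 47.7%, 46.6% and 46.8% under median-of-ratios scaling; for LinNeg against LinNegSca1Neg it went from 36.0% to 49.8%. Rescaling without myofibre markers moved it from 41.1% to 28.1% for LinNegSca1Pos against LinNegSca1Neg and from 51.9% to 76.6% for LinNeg against LinNegSca1Pos. Under median-of-ratios scaling bZIP partners gave 14 higher and 4 lower calls in LinPos and 9 and 3 in LinNeg, upstream genes 6 and 13, and 3 and 13, stability regulators 7 and 4, and 5 and 4, AP-1 targets 15 and 7, and 16 and 5, and immediate early genes 19 and 0 in both.

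Between sorted fractions counts were small and moved. Members called in LinPos against LinNeg were 3, but 5 with a term for replicates 3 and 4 (adjusted p of Jun 0.00209 and Jund 0.0447) and 5 with the replicate block in the compared groups; the block in the fit of all groups left 3. The block, on the same scale, gave 2 calls for LinNegSca1Pos against LinNegSca1Neg (0 otherwise; Fos -0.57, adjusted p 0.0209, and Fosb -0.63, 0.0129), 1 for LinNeg against LinNegSca1Pos (0 otherwise) and, in the compared groups, 1 for LinNeg against LinNegSca1Neg (0 otherwise), where all called genes went from 3632 to 6225; it gave 8 of 8 against Whole. Replicates 1 and 2 alone gave 6, 6 and 4 calls for LinNegSca1Pos against LinNegSca1Neg, LinNegSca1Pos against LinPos and LinNeg against LinNegSca1Pos, and replicates 3 and 4 alone 1, 3 and 1, with 2272 genes called in LinNeg against LinNegSca1Neg. Rescaling without myofibre markers gave 1 call each for LinNegSca1Pos against LinNegSca1Neg (Fos, 0.0263) and against LinPos (Fos there 0.0983), and 4 each, with Jun, for LinPos against LinNeg (0.0305) and LinNegSca1Neg against LinPos (0.0200). Leaving out a library gave 1 to 3 calls in LinNegSca1Pos against LinPos. Maff there passed with median-of-ratios scaling (0.0462), in a fit of the compared groups (0.0288) and with the block (0.0477).

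Differences that changed sign from the main fit were not called in it or in the setting that reversed them. In LinNegSca1Pos against LinNegSca1Neg, however, replicates 1 and 2 alone and 3 and 4 alone gave opposite signs for 6 genes, Junb and Jund being called higher and Fosl2 and Maff lower with the former and Jun lower with the latter. In LinPos against LinNeg, Atf3 was 0.048 with median-of-ratios scaling and 0.14 with replicates 3 and 4, where Junb was 0.21; leaving out a library gave -0.10 to 0.10 for Atf3, -0.51 to 0.37 for Junb and -0.36 to 0.17 for Fosl2. In LinNegSca1Pos against LinNegSca1Neg, Atf3 was 0.038 with that scaling and -0.24 to 0.18 with a library left out. With replicates 3 and 4 Atf3 was 0.21, Fosl2 0.058, Junb -0.20, Jund -0.40 and Maff 0.13, and with replicates 1 and 2 Jun was 0.29. Jun in LinNegSca1Pos against LinPos was -0.10 with replicates 3 and 4, but 0.99 and called higher with replicates 1 and 2 (limma adjusted p = 0.00248). The cause was not tested. Shares and ratios moved by less than the spread between libraries. Depth is not stated, and Fosl1, near the lowest listed value, could not be compared.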
